A study of Mus musculus with 6 samples.

Results

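Skeletal muscle came along with the cranial base when it was dissected from mouse embryos at E15.5, and 35 genes of the sarcomere and of muscle formation were followed in each library. The rule named 36 muscle genes, and 35 of the 43496 entries of the table matched one of them, each gene with a single entry. The skeletal actin Acta1 was the member without an entry and is not analysed here. All 35 had a mean of at least 1 FPKM over the 6 libraries and entered the test. FPKM are fragments scaled to transcript length and to the total of the library, so levels of different genes can be set side by side.

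The cranial base is the cartilage plate under the brain. RNA came from 3 control embryos and 3 Memo1 mutant embryos, 1 library each, all of the C57BL/6J strain and of E15.5. The mutant allele of Memo1 came from mutagenesis with ENU, an alkylating chemical. The sources used here give neither the number of altered copies in the mutants nor the exact genotype of the controls. The first word of the title is shared by control 1 and mutant 1 and by controls 2 and 3 and mutant 3, while mutant 2 stands alone with its word, whose meaning is not given.

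A muscle fibre contracts when myosin of the thick filaments pulls on actin of the thin filaments. Troponin and tropomyosin on the thin filament hold this back until calcium is released. Many of these proteins come in forms made from separate genes for fast fibres, slow fibres, heart and embryo, and fetal skeletal muscle mixes several of them. The myogenic regulators Myf5, Myod1, Myog and Myf6 are transcription factors that bind E-boxes and set and carry out the muscle fate.

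Mutant 1 stood apart from the other 5 libraries. It listed 30811 entries at 0, against 19787 to 20594 in the others, and 823 of 10192 genes above 5 FPKM in all of the others were listed at 0 there. Across the 15710 tested entries, the log2 values of mutant 1 had r = 0.748 to 0.762 with the other libraries, which had 0.968 to 0.981 among themselves; genes are not independent replicates. The steps between low values placed the depth of the other 4 libraries at 80.2% to 152% of that of control 1, and gave none for mutant 1. Mutant 3 was female and the other 5 embryos male by Xist (114 FPKM against at most 0.0942 FPKM) and Ddx3y (0.0224 FPKM against 15.2 to 17.8 FPKM). Results that rest on mutant 1 are given with and without it.

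The markers bear out skeletal muscle rather than heart. The regulator Myog was at 86.4 to 114 FPKM in the 3 controls, and 7 of 9 heart markers, among them Nppa, Nkx2-5 and Myl7, were below 1 FPKM in all 6 libraries. The summed level of the 9 heart markers was 4.5 to 6.69 FPKM in controls and 1.42 to 5.1 FPKM in mutants. The 1.42 FPKM is from mutant 1, where all of them but Myh6 are listed at 0. Mutants 2 and 3 had sums of 4.16 and 5.1 FPKM. The highest of the 9 markers was Tnni3, the heart troponin I. Members that heart also makes, such as Actc1, Tnnt2, Myl4 and Casq2, were thus measured in tissue with little of the defining heart RNA. The cartilage of the label was present in every library, with Col2a1 at 1570 to 2660 FPKM.

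Muscle RNA was abundant in control tissue. Mylpf, the regulatory light chain of fast myosin, had a control mean of 2561 FPKM and ranked 6 among the 15710 tested entries. The heart and fetal actin Actc1 followed at 971 FPKM, the tropomyosin Tpm2 at 889 FPKM and the fast troponin C Tnnc2 at 689 FPKM. Lowest were the early regulator Myf5 at 3.82 FPKM, the giant spring protein titin, Ttn, at 4.12 FPKM and Xirp1, an actin-binding protein of muscle attachment sites, at 4.3 FPKM.

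With all 6 libraries 0 of the 35 muscle genes passed in limma at an adjusted p of 0.05, where 0% of the 15710 tested entries passed (limma adjusted p from 0.695 to 0.99). At an unadjusted p under 0.05 limma had 4 of the 35, all lower in mutants, against 3.01% of all entries lower. They were Tnnt3, Mylpf and Tnni2, genes of fast fibres, and Ckm, of the energy supply of muscle. Tnnc2, Myl1 and Atp2a1, also of fast fibres, were not among them (limma unadjusted p = 0.285, 0.417 and 0.913). Of the 35, 24 had a log2 change below 0, where 54.2% of all entries did, with a median of -0.18 against -0.046 over all entries. Without the 2 members listed at 0 in mutant 1 the count was 22 of 33 with a median of -0.15. Without mutant 1 31 of 35 lay below 0, where 52.9% of all entries did, with a median of -0.23 against -0.015. There limma called 0 of 35 (0.0446% of all entries), with 7 at an unadjusted p under 0.05, all lower (9.41% of all entries). With limma's library weights 31 of 35 lay below 0, where 53.5% of all entries did. In bulk tissue, fewer muscle cells and less muscle RNA per cell cannot be told apart.

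**Figure D1:**
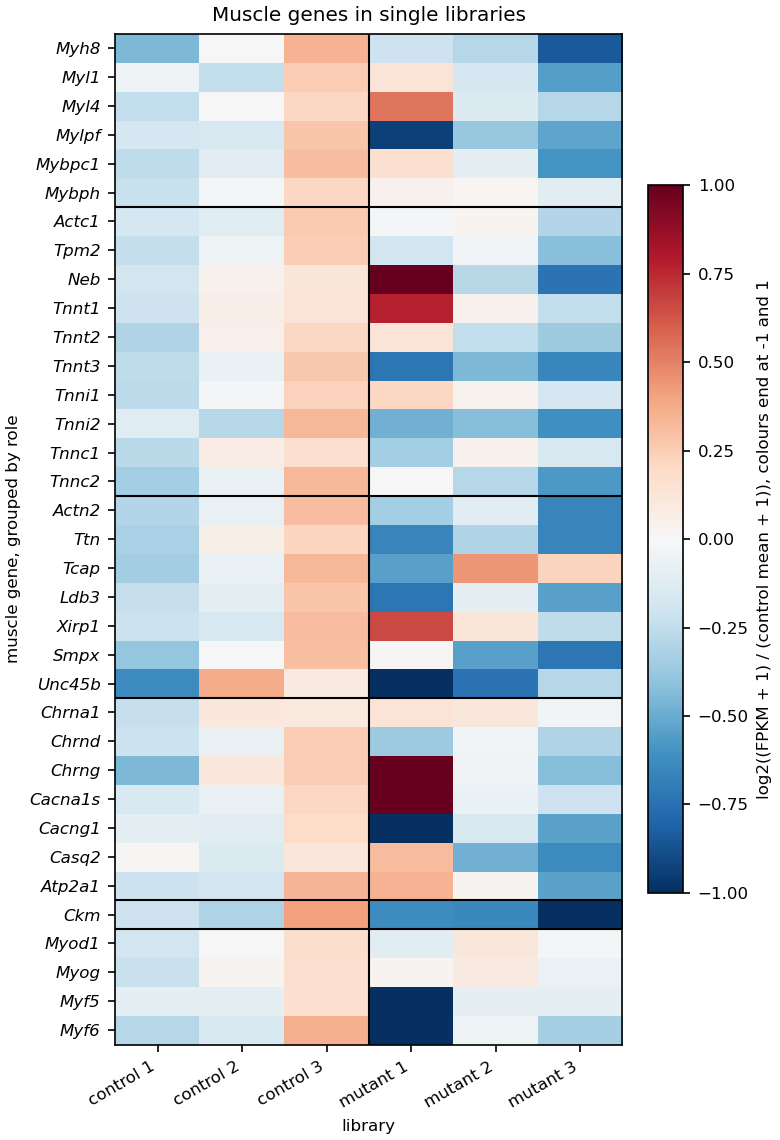
Level of each of the 35 muscle genes (rows, grouped by role with black lines: thick filament, thin filament, Z disc and titin, junction and calcium handling, Ckm, regulators) in each library (columns). Colour is log2 of FPKM + 1 over the control mean + 1 and ends at -1 and 1. Control 3 is above the control mean in all 35 rows, mutant 3 is below it in 34, and mutant 1 holds cells at both ends of the colour scale.

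The spread between single embryos of 1 genotype was wide for these genes. Control 3 was the highest of the 3 controls in 33 of 35 muscle genes, where 25.9% of all tested entries had it highest. Control 1 was the lowest of the 3 controls in 29 of 35, for which the share over all entries was not computed. Per library, the muscle genes had a median of 84.4%, 95% and 120% of the control mean in controls 1, 2 and 3, and of 98.5%, 93.9% and 75% in mutants 1, 2 and 3. Over all tested entries the same medians were 97.7% to 101% in the controls and 93.6% to 98.4% in the mutants. Mutant 1 was the lowest or the highest of the 6 in 19 of 35 muscle genes, where 85.2% of all tested entries had it so. Control 3 and mutant 3 stood out in the muscle genes while their typical gene did not.

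The same order appeared in the sums. The 35 genes together came to 7940, 8488 and 11013 FPKM in controls 1, 2 and 3 and to 7956, 7945 and 6628 FPKM in mutants 1, 2 and 3. Control 1 thus lay with mutants 1 and 2, and the groups overlapped. Of the 5 libraries without mutant 1, control 3 was highest in 32 of 35 muscle genes (14.6% of all entries) and mutant 3 lowest in 26 (21.4%). These libraries were singled out after their values were seen. Mutant 3 is also the only female and the deepest library with a depth given, and the part of these in its muscle values was not tested.

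The controls differed more among themselves in the muscle genes than in the typical gene. The SD of log2 values among controls had a median of 0.25 over the 35 genes and of 0.12 over all tested entries. In 7 of 35 genes the difference between the genotype means was larger than the whole range of the controls, against 57.8% of all entries. Without mutant 1 these were 5 of 35, against 32% of all entries.

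**Figure D2:**
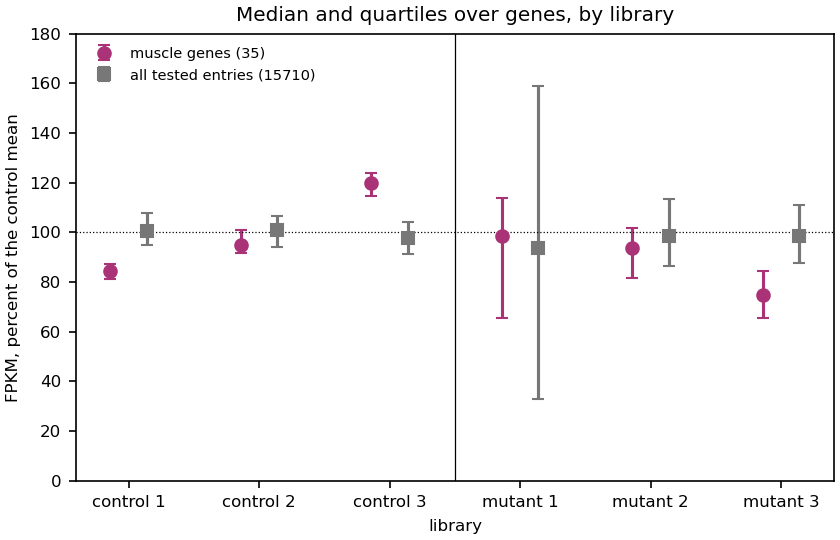
Level by library as a percent of the control mean of each gene, with points at the median and bars from the lower to the upper quartile over genes. Muscle genes run from 84.4% in control 1 to 120% in control 3 and from 98.5% in mutant 1 to 75% in mutant 3, while the medians of all 15710 tested entries stay between 93.6% and 101%, with a wide bar in mutant 1.

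The within-word comparisons went in different ways. Mutant 3 was lower than the mean of controls 2 and 3, which share its title word, in 34 of 35 muscle genes (51.1% of all entries). The median log2 difference was -0.52 against -0.0065 over all tested entries. Mutant 1 was lower than control 1 in 14 of 35 (53.3% of all entries), with a median of 0.17 against -0.082 over all entries. Each comparison has a single mutant and no replicate check.

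In 5 of the 35 genes every mutant lay below every control, where 11.9% of all tested entries did so, and in 0 did every mutant lie above (8.98% of all entries). They were Mylpf, Tnnt3, Tnni2, Cacng1 and Ckm. The count was 8 without mutant 1, where 20.1% of all entries did so (0 above, against 16.2% of all entries), 10 without control 1 (14.8% of all entries) and 11 without mutant 2 (17.8% of all entries). The 3 that joined without mutant 1 were Neb, Smpx and Casq2. The 11 without mutant 2 included Myf5 and Myf6, which are listed at 0 in mutant 1. In mutant 3 they were at 3.49 and 8.66 FPKM, just below their lowest controls at 3.5 and 8.98 FPKM.

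Among the thick filament genes, Mylpf was 2278, 2299 and 3105 FPKM in controls 1, 2 and 3 and 1343, 1971 and 1780 FPKM in mutants 1, 2 and 3. The highest mutant stayed below the lowest control. Its log2 change was -0.60, SE 0.19 (limma adjusted p = 0.695), and -0.44, SE 0.15 without mutant 1 (limma adjusted p = 0.233). Myh8, the perinatal myosin heavy chain, was 59.2, 80.8 and 103 FPKM in controls, against 70.0, 66.2 and 44.8 FPKM in the mutants. Here the groups overlapped, since control 1 lay below mutants 1 and 2.

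The alkali light chains of myosin overlapped between genotypes too. Myl1, the fast skeletal form, was 522, 455 and 643 FPKM in controls, against 589, 479 and 368 FPKM in the mutants. Myl4, the embryonic and atrial form, was 305, 362 and 419 FPKM in controls, against 525, 329 and 297 FPKM in the mutants. For both, mutant 1 lay above 2 of the 3 controls or all of them, and mutant 3 below all. The myosin-binding proteins Mybpc1, the slow form, and Mybph had log2 changes of -0.15 (SE 0.24) and -0.0038 (SE 0.14), with limma adjusted p of 0.763 and 0.99. Without mutant 1 these were -0.32 (SE 0.21) and -0.031 (SE 0.13), with limma adjusted p of 0.484 and 0.929.

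Troponin of the thin filament has a fast and a slow form of each subunit. Tnnt3, the fast troponin T that ties troponin to tropomyosin, was 343, 390 and 492 FPKM in controls, against 247, 299 and 259 FPKM in the mutants. Its 3 mutants all lay below its 3 controls, with 408 ± 76.2 FPKM against 268 ± 27.2 FPKM (SD, n = 3). The log2 change was -0.59, SE 0.16 (limma adjusted p = 0.695), and -0.53, SE 0.16 without mutant 1 (limma adjusted p = 0.182).

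Tnnt1, the slow troponin T, was 314, 379 and 397 FPKM in controls, against 620, 375 and 307 FPKM in the mutants. Mutant 1 was the highest and mutant 3 the lowest of the 6, and mutant 2 lay within the controls. The fitted change was 0.20 on the log2 scale (SE 0.27, limma adjusted p = 0.735) and -0.092 without mutant 1 (SE 0.14, limma adjusted p = 0.765), so its sign turned. Tnnt2, the heart and embryonic troponin T, was 85.6 to 122 FPKM in controls, against 82.3 to 116 FPKM in the mutants, which overlapped.

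Troponin I is the inhibitory subunit. Tnni2, its fast form, was 303, 269 and 415 FPKM in controls, against 236, 245 and 215 FPKM in the mutants. Every mutant was below every control, with a log2 change of -0.48, SE 0.17 (limma adjusted p = 0.695), and -0.50, SE 0.19 without mutant 1 (limma adjusted p = 0.257). Tnni1, the slow form, was 214, 253 and 301 FPKM in controls, against 296, 263 and 228 FPKM in the mutants, inside the range of the controls.

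For troponin C, the calcium sensor, neither form separated the genotypes. Tnnc2, the fast form, was 544, 654 and 869 FPKM in controls, against 689, 564 and 464 FPKM in the mutants. Tnnc1, the form of slow fibres and heart, was 229 to 309 FPKM in controls, against 218 to 284 FPKM in the mutants. In both genes mutant 2 lay within the range of the controls.

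The other thin filament genes overlapped between genotypes. Actc1 was 858, 891 and 1164 FPKM in controls, against 957, 988 and 791 FPKM in the mutants. Its sequence is close to that of other actins, and no source used here tells how the authors assigned shared reads, so its level is uncertain. Tpm2 was 754 to 1055 FPKM in controls, against 667 to 873 FPKM in the mutants. Neb, the ruler protein nebulin that runs along the thin filament, was 25.9, 30.4 and 32.1 FPKM in controls, against 63.0, 24.2 and 17.2 FPKM in the mutants, so that mutant 1 was the highest of all and the other mutants were the lowest.

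**Figure D3:**
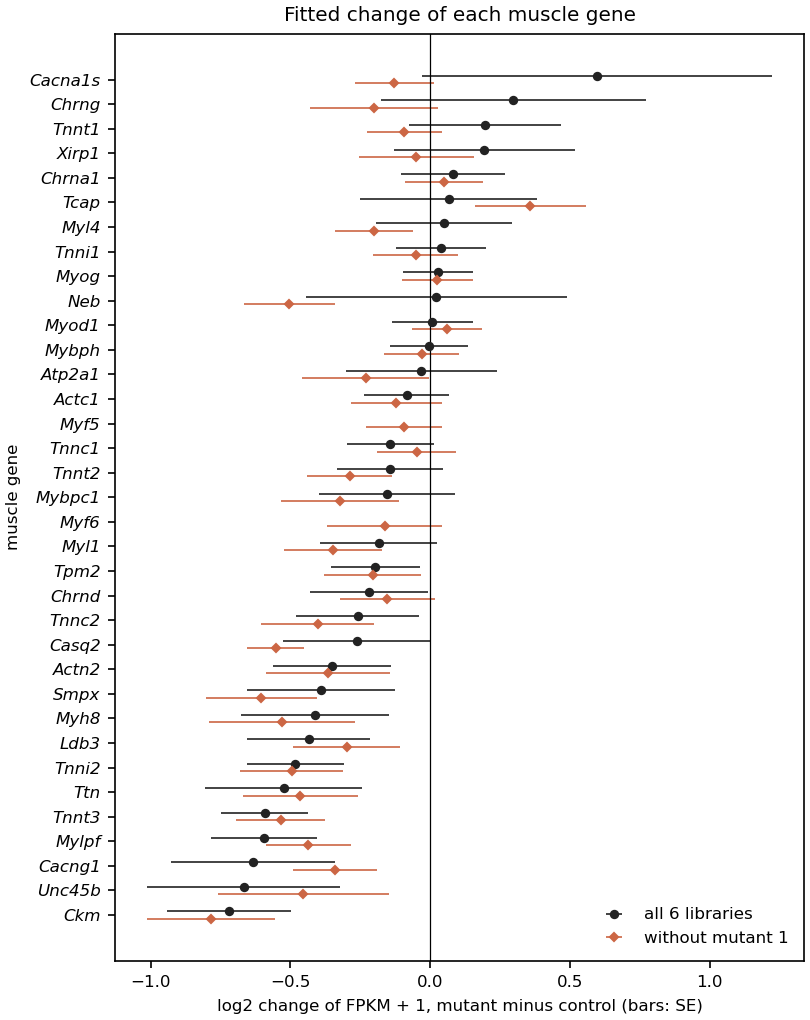
Fitted log2 change of each muscle gene, mutant minus control on the scale of FPKM + 1, with bars of 1 SE. Black circles use all 6 libraries and orange diamonds leave out mutant 1. Myf5 and Myf6, listed at 0 in mutant 1, have the diamond only. Ckm lies at -0.72 and Tnnt3 at -0.59, while Cacna1s moves from 0.60 to -0.13 and Neb from 0.023 to -0.50.

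A ratio of 2 genes within a library does not move with the amount of muscle in the dissected tissue, as long as both come from muscle. Of 6 ratios planned, 5 could be computed, since Acta1 was not analysed. With 3 against 3 embryos the exact permutation test cannot go below p = 0.1, so none of the ratios can pass 0.05.

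Fast over slow troponin T, Tnnt3/Tnnt1, was 1.09, 1.03 and 1.24 in controls 1, 2 and 3 and 0.398, 0.796 and 0.846 in mutants 1, 2 and 3. All mutants lay below all controls, the highest at 0.846 and the lowest control at 1.03. The log2 difference was -0.79 (two-sided exact permutation p = 0.1, adjusted over 5 ratios 0.167). Without mutant 1 it was -0.44 with an exact permutation p of 0.1, again the smallest that this number of libraries allows.

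Fast over slow troponin I, Tnni2/Tnni1, was 1.41, 1.06 and 1.38 in the controls and 0.797, 0.932 and 0.941 in the mutants. The groups were again apart, but control 2 came close to the mutants. The log2 difference was -0.52 (two-sided exact permutation p = 0.1, adjusted 0.167), and -0.44 without mutant 1 (exact permutation p = 0.2).

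Fast over slow troponin C, Tnnc2/Tnnc1, did not separate the genotypes with all 6 libraries. It was 2.37, 2.26 and 2.82 in the controls and 3.16, 1.99 and 1.88 in the mutants. Mutant 1 was the highest of the 6 and the other mutants were the lowest (log2 difference -0.12, two-sided exact permutation p = 0.6). Without mutant 1 the difference was -0.35 (exact permutation p = 0.1), and without mutant 3 it turned to 0.022.

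Ratios of embryonic over skeletal forms were computed for troponin T and a myosin light chain. Tnnt2/Tnnt3 was 0.25, 0.282 and 0.248 in the controls and 0.47, 0.298 and 0.317 in the mutants, with every mutant above every control (log2 difference 0.45, two-sided exact permutation p = 0.1, adjusted 0.167). Without mutant 1 the difference was 0.25 (exact permutation p = 0.2). This ratio shares Tnnt3 with the ratio of fast over slow troponin T and is not independent of it. Myl4/Myl1 overlapped, at 0.585 to 0.796 in the controls and 0.686 to 0.891 in the mutants (log2 difference 0.23, two-sided exact permutation p = 0.2, and 0.15 with p = 0.4 without mutant 1).

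**Figure D4:**
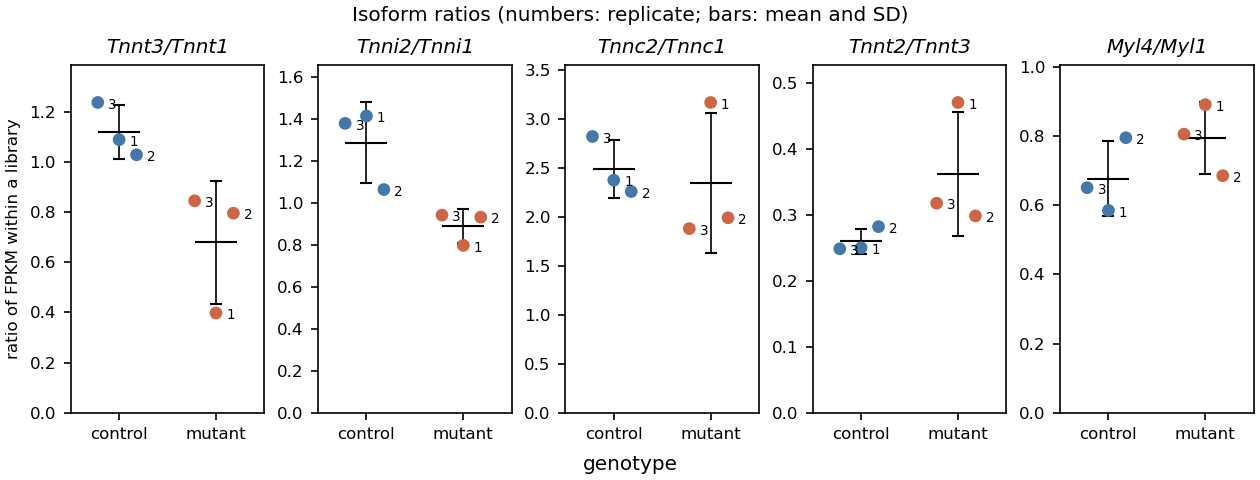
Ratio of the FPKM of 2 genes within each library, controls in blue and mutants in orange, numbered by replicate, with the mean and SD of each group (n = 3). In Tnnt3/Tnnt1 and Tnni2/Tnni1 every mutant lies below every control and in Tnnt2/Tnnt3 above, while Tnnc2/Tnnc1 and Myl4/Myl1 overlap.

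The genes of the Z disc and of sarcomere assembly varied strongly between libraries. Ldb3, which holds the Z disc together under load, was 42.1, 46.4 and 60.3 FPKM in controls, against 29.7, 46.6 and 33.8 FPKM in the mutants. Smpx, a small protein of muscle attachment sites, was 27.0, 35.7 and 44.3 FPKM in controls, against 35.9, 24.2 and 21.3 FPKM in the mutants. Mutant 2 stood level with control 2 in Ldb3, while in Smpx it lay below all controls.

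Unc45b, the chaperone that folds myosin, had the widest spread among controls, at 11.1, 23.3 and 19.0 FPKM, with the highest control 2.11 times the lowest. Its mutants were at 7.46, 10.3 and 14.4 FPKM and overlapped with control 1. Tcap, which caps titin at the Z disc, was 13, 15.9 and 21.3 FPKM in controls, against 11.2, 23 and 19.7 FPKM in the mutants. It was the member that stood highest in mutants 2 and 3 against the control mean, at 128% of it, and mutant 1 was below all controls.

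The remaining genes of this group also overlapped. Actn2, the actin crosslinker alpha-actinin, was 107 to 163 FPKM in controls, against 82.7 to 122 FPKM in the mutants. Ttn was 3.1 to 4.95 FPKM in controls, against 2.24 to 3.15 FPKM in the mutants, a small overlap through mutant 2 and control 1. Xirp1 was 3.56 to 5.55 FPKM in controls, against 3.44 to 7.39 FPKM in the mutants. In this group 5 of 7 log2 changes were below 0 (54.2% of all entries), with a median of -0.39. Without mutant 1, 6 of 7 were below 0 (52.9% of all entries), with a median of -0.37.

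Genes of the nerve-muscle junction and of calcium handling held the highest level of mutant 1 relative to the controls. Cacna1s, the voltage sensor of the T-tubule, was 6.31, 6.73 and 8.4 FPKM in controls, against 32.5, 6.78 and 6.06 FPKM in the mutants. Mutant 1 was thus at 455% of the control mean with the other mutants near the controls. Chrng, the fetal gamma subunit of the acetylcholine receptor, was 11.1, 16.8 and 18.6 FPKM in controls, against 38.8, 15.2 and 11.3 FPKM in the mutants, with the same pattern.

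Chrne, the subunit that replaces Chrng in adult muscle, was at most 0.631 FPKM in any library. The alpha and delta subunits Chrna1 and Chrnd lay between 5.97 and 9.89 FPKM in all 6 libraries, and their groups overlapped. Cacng1, the gamma subunit of the same calcium channel, was 18.7, 18.3 and 22.8 FPKM in controls, against 7.95, 17.8 and 13.4 FPKM in the mutants. Its groups did not overlap, though mutant 2 came within 1 FPKM of the lowest control (log2 change -0.63, SE 0.29, limma adjusted p = 0.695, and -0.34, SE 0.15, limma adjusted p = 0.328 without mutant 1).

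Casq2, a calcium store protein of the sarcoplasmic reticulum found in heart and in slow and fetal muscle, was 125, 112 and 134 FPKM in the controls. In the mutants it was 154, 88.6 and 79.4 FPKM, so that mutant 1 was the highest of all and the other mutants the lowest. It was the only one of the 35 genes called in any of the fits. With limma's library weights, in which mutant 1 counted 0.0329 against 1.47 to 2.76 for the others, Casq2 fell by 0.56 on the log2 scale (SE 0.096, limma adjusted p = 0.0398). There 1 of 35 muscle genes was called, where 1.32% of all entries were called lower and 2.04% in either direction. With equal weights its log2 change was -0.26, SE 0.26 (limma adjusted p = 0.697), and without mutant 1 -0.55, SE 0.10 (limma adjusted p = 0.0924). Over all settings its limma adjusted p ran from 0.0398 to 0.872.

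Atp2a1, the calcium pump of fast fibres, did not separate the genotypes as the fast troponins Tnnt3 and Tnni2 did. It was 145, 147 and 213 FPKM in controls, against 214, 171 and 116 FPKM in the mutants, with overlapping groups and mutant 1 level with the highest control. Ckm, the creatine kinase that restores ATP in muscle, was 312, 290 and 479 FPKM in controls, against 233, 230 and 181 FPKM in the mutants. All its mutants lay below all its controls, and control 3 stood far above the other 2. The log2 change was -0.72, SE 0.22 (limma adjusted p = 0.695), -0.78, SE 0.23 without mutant 1 (limma adjusted p = 0.179), and -0.50 without control 3.

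The regulators did not separate the genotypes. Myog, which drives differentiation of myoblasts, was 86.4, 103 and 114 FPKM in controls, against 103, 108 and 97.0 FPKM in the mutants. Myod1, which commits cells to muscle, was 19.0, 21.7 and 24.8 FPKM in controls, against 20.2, 23.7 and 21.7 FPKM in the mutants. For both all 3 mutants lay inside the range of the controls. The log2 change of Myog was 0.029, SE 0.13 (limma adjusted p = 0.909), and that of Myod1 0.0078, SE 0.15 (limma adjusted p = 0.979). A p that misses the threshold does not show that the levels were equal.

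Myf5, the earliest of the regulators, was 3.53, 3.5 and 4.41 FPKM in controls, against 3.51 and 3.49 FPKM in mutants 2 and 3. Myf6, which acts late in fibres, was 8.98, 9.93 and 14.5 FPKM in controls, against 10.7 and 8.66 FPKM in mutants 2 and 3. Both are listed at 0 in mutant 1, where many genes of higher level are listed at 0 too, so no mean is given for the mutants. The 4 regulators together came to 118, 138 and 157 FPKM in controls, against to 123, 146 and 131 FPKM in the mutants. In mutant 3 this sum lay within the controls, while the sum over all 35 muscle genes lay below them.

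E-boxes, the CANNTG sites that the regulators bind, were counted in the 250 bases before the transcription start of each gene, from RefSeq on GRCm38.p6. Of the 36 genes 27 had a window there, the first one listed being used. CANNTG reads the same on both strands, and matches were counted also where they overlapped another motif. It stood in 22 of the 27 windows (81.5%) and in 66% of all 27025 genes of that table. A match to the consensus of MEF2, a partner of the myogenic regulators, stood in 3 of 27 and in 3.01% of all genes. A CArG box, the site of serum response factor, stood in 3 of 27 and in 1.4% of all genes. A match of letters does not show that a factor binds there, and a site that departs from the consensus was not counted.

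The 3 windows below stand for a regulator that did not separate the genotypes (Myog), the most abundant gene with separated groups (Mylpf) and the gene called with library weights (Casq2). They read 5′ to 3′ on the strand of the gene, here the plus strand throughout, and end at the base before the start. Capitals mark E-boxes and, in Casq2, also the MEF2 match. They lie at chr1:134289754-134290003, chr7:127211358-127211607 and chr3:102086165-102086414 in this order.
Myog: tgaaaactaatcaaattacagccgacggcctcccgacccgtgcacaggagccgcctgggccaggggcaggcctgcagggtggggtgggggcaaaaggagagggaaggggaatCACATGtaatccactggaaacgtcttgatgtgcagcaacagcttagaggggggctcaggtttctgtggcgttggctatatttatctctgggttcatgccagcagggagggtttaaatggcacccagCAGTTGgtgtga
Mylpf: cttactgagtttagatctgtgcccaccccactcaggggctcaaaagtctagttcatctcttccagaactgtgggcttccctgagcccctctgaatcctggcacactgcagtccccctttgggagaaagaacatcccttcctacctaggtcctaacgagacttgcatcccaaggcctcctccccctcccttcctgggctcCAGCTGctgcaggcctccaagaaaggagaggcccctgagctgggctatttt
Casq2: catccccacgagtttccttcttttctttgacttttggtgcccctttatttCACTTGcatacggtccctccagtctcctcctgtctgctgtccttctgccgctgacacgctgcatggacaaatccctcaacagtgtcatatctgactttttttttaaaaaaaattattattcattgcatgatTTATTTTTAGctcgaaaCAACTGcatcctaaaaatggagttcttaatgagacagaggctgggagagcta

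The Myog window held 2 E-boxes, which began 138 and 12 bases before the start, and the Mylpf window 1, at 51 bases. The Casq2 window held 2, at 200 and 52 bases, and the MEF2 match at 69 bases.

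A wider list of 63 further muscle genes was read in the same way. Of these 56 were tested, 5 were below the filter and 2 carry the code for a missing value in 1 mutant library each and were not fitted. Myh3, the embryonic myosin heavy chain, was listed at 148, 199 and 230.3 FPKM in controls, against 247 and 217 FPKM in mutants 1 and 2. Ryr1, the calcium release channel, was listed at 3.09, 4.11 and 4.35 FPKM in controls, against 6.04 and 2.56 FPKM in mutants 1 and 3. In limma 0 of the 56 passed with all 6 libraries. At an unadjusted p under 0.05 limma had 3 of the 56, where 5.12% of all entries were in either direction. Among these 3, Myl2 was higher in mutants. Of the 56, 39 had a log2 change below 0 (54.2% of all entries) with a median of -0.21. In every mutant 11 lay lower and 1 higher (11.9% and 8.98% of all entries). Some of those 11 are listed at 0 in mutant 1. Without mutant 1, 45 of the 56 had a log2 change below 0 (52.9% of all entries) with a median of -0.23. There 22 lay lower in both mutants and 3 higher (20.1% and 16.2% of all entries). With library weights 2 of the 56 were called, where 2.04% of all entries were, namely Ckmt2, a mitochondrial creatine kinase, and Klhl41, which stabilizes nebulin (log2 changes -0.91 and -0.64, limma adjusted p = 0.0441 and 0.0475). Both had lower levels in mutants 2 and 3 than in every control. In mutant 1, however, Ckmt2 was at 19.5 FPKM, above all controls, and Klhl41 at 32.2 FPKM, within them.

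Of the 8 further genes with the highest levels, Tpm1 and Sln had every mutant below every control. Sln, the sarcolipin that restrains the calcium pump, was 124, 137 and 195 FPKM in controls, against 79.7, 111 and 85.0 FPKM in the mutants (log2 change -0.71, SE 0.22, limma adjusted p = 0.695). Without mutant 1 the log2 change of Sln was -0.61, SE 0.21 (limma adjusted p = 0.231). Tpm1, a tropomyosin made in many cell types, was 688, 704 and 845 FPKM in controls, against 670, 643 and 619 FPKM in the mutants. Des, Tpm3, Eno3, Pgam2, Cox6a2 and Csrp3 overlapped between genotypes.

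The gene that lay higher in every mutant was Myl2, the regulatory light chain of slow fibres and of the heart ventricle. It was 32.4, 25.1 and 36.7 FPKM in controls, against 108, 55.6 and 50.9 FPKM in the mutants. Its log2 change was 1.09, SE 0.32 (limma adjusted p = 0.695), with library weights 0.77, SE 0.15 (limma adjusted p = 0.0502). Without mutant 1 the change was 0.76, SE 0.16 (limma adjusted p = 0.111). Myh7, the slow myosin heavy chain, was 18.6 to 27.3 FPKM in controls, against 22.5 to 34.1 FPKM in the mutants, which overlapped. Both were named after their values were seen. Adult fast myosins Myh1 and Myh2 were below 1 FPKM in all 6 libraries, and Myh4 was above it only in mutant 1, at 1.46 FPKM.

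Markers of several other cell types in the same tissue stood apart between genotypes, and their part in the muscle values was not tested. Over all tested entries, 11.9% were lower in every mutant and 8.98% higher. The 6 cartilage markers summed to 2416 to 3221 FPKM in controls, against 3632 to 4160 FPKM in the mutants, all 6 higher in every mutant. The 5 bone markers summed to 855 to 1244 FPKM in controls, against 300 to 531 FPKM in the mutants, 4 of them lower in every mutant. Of 6 fat markers, 4 were lower in every mutant, with sums of 96.8 to 126 FPKM against 12.0 to 63.7 FPKM, and Ucp1 and Lep were below 1 FPKM throughout. The 12.0 FPKM is from mutant 1, where Adipoq, Plin1 and Cidec are listed at 0. Mutants 2 and 3 had sums of 63.7 and 44.4 FPKM. Of 5 tendon markers, 4 were higher in every mutant. The 5 summed to 234 to 309 FPKM in controls, against 255 to 309.7 FPKM in the mutants. Most of these sums was Fmod, the marker that overlapped, at 155 to 220 FPKM in controls and 146 to 186 FPKM in mutants. The 7 smooth muscle markers summed to 238 to 293 FPKM in controls, against 269.7 to 307 FPKM in the mutants, with Tagln higher in every mutant and the other 6 overlapping. The 5 markers of motor nerve and Schwann cells summed to 52.6 to 67.7 FPKM and 56.1 to 68 FPKM, and Chat, of motor neurons, was below 1 FPKM throughout. The 4 markers of myoblasts and satellite cells, Pax3, Pax7, Myf5 and Myod1, summed to 25.8 to 33.5 FPKM and 24.5 to 30.9 FPKM, none apart between genotypes. The highest members of these lists were Col2a1 for cartilage, Ibsp for bone, Fabp4 for fat and Fmod for tendon. For smooth muscle it was Acta2, for nerve and Schwann cells S100b and for myoblasts Myod1.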

How the data were processed

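RNA from the cranial base of 6 embryos was sequenced, 1 library each. The deposited table gives FPKM values for each library, a unit inferred from the tool and the values. Cufflinks and build mm9 are named per the submitters' processing notes, without a version, with aligner, annotation and read assignment not given in the sources used here. A code of 999999999 was treated as missing, which removed 15 of 43496 entries. Entries with a mean of at least 1 FPKM (15710) were tested on log2(FPKM + 1) with limma 3.58.1 in R 4.3.3, as two-sided tests of genotype alone (trended prior, robust), with Benjamini-Hochberg adjustment over all of them, at 0.05. Fold changes on this scale understate those of low genes. The script was tested on simulated data with the spread of the libraries other than mutant 1. That test does not show the power of the fit that includes mutant 1.

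All members were named, of the further muscle genes the 8 highest and those without a value, and of marker lists the counts, ranges and highest member; Myl2, Myh7, Ckmt2, Klhl41, Chrne, the adult myosins and single markers were chosen after their values were seen. The members and lists were chosen with earlier results of these data known. Replicates are separate embryos by their titles, numbered in accession order, and the numbers pair no samples. The table holds no counts, so no interval for counting error is given. The highest correlation between libraries was 0.981, so none was a copy of another. Promoter windows came from RefSeq (GRCm38.p6), whose build differs from that of the files, and no coordinate of the files was used; the CArG search was added after seeing the data. Ratios used an exact permutation test.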

Additional observations from a re-analysis of the deposited data

How the results depend on the processing

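limma called 0 genes and 0 muscle genes with all 6 libraries, and 320 and 1 with library weights. Leaving out 1 library at a time gave 0 to 7 called genes, the 7 without mutant 1, and 0 called muscle genes, against 322 to 2666 genes at an unadjusted p under 0.05. The other settings gave 0 (pseudocount of 0.1 FPKM, no filter, a mean of at least 5 FPKM, median-ratio scaling, title word as a random effect or a fixed term), with 611 to 1237 at an unadjusted p under 0.05. Median-ratio scaling put 28 of 35 muscle genes below 0, against 24. The median log2 change of the muscle genes stayed below 0, from -0.27 to -0.056 without single libraries. It was weakest without control 3, at -0.056 against -0.055 over all entries, with 20 of 35 muscle genes below 0. Muscle genes lower in every mutant were 5 to 11 without single libraries, a check added after seeing the data. The highest count, without mutant 2, included Myf5 and Myf6, listed at 0 in mutant 1. Tnnc2/Tnnc1 ran from -0.35 to 0.022.

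Signs were followed over the settings for 43 muscle genes, the tested members and the further genes with the highest levels. Of these 43, 25 kept their sign in every setting run. The other further genes, among them Myl2, Ckmt2 and Klhl41, were not followed in this way. With library weights the sign turned for Myl4 (-0.21), Neb (-0.56), Tnnt1 (-0.13), Tnni1 (-0.072), Xirp1 (-0.083), Chrng (-0.25), Cacna1s (-0.12), Des (-0.23) and Tpm3 (-0.22). With median-ratio scaling it turned for Neb (-0.017), Tnni1 (-0.00051), Myod1 (-0.029), Myog (-0.0097) and Des (-0.019), and with the title word as a fixed term for Tcap (-0.033) and Myod1 (-0.017). Without single libraries the log2 change ran from -0.20 to 0.21 for Myl4, -0.32 to 0.057 for Mybpc1, -0.11 to 0.11 for Mybph, -0.17 to 0.054 for Actc1, -0.50 to 0.40 for Neb, -0.092 to 0.41 for Tnnt1, -0.084 to 0.16 for Tnni1, -0.13 to 0.36 for Tcap and -0.049 to 0.41 for Xirp1. It ran from -0.028 to 0.14 for Chrna1, -0.20 to 0.65 for Chrng, -0.13 to 0.996 for Cacna1s, -0.23 to 0.21 for Atp2a1, -0.085 to 0.10 for Myod1, -0.078 to 0.12 for Myog, -0.22 to 0.20 for Des, -0.23 to 0.25 for Tpm3 and -0.34 to 0.0084 for Csrp3. The cause was not tested. The labels give no replicate numbers, and mutant 2 shares its title word with no control, so a pairing of all libraries was not possible. The shared title word, with mutant 2 alone in its word, was used as a block instead, and as a random effect or a fixed term it left 0 muscle genes called and 4 at an unadjusted p under 0.05. With the word as a fixed term, mutant 2 adds nothing to the difference between genotypes. Values near 0 are limited by the depth, which is unknown for mutant 1.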
